A study of Mus musculus with 15 samples.

Results

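The regions described here are stretches of the mouse genome that carried a peak of trimethylated lysine 27 of histone H3 (H3K27Me3) in islets of HFD-O304 mice and no such peak in islets of RD or HFD mice. They were chosen from the peak lists themselves. Peaks of the 3 diets' H3K27Me3 lists on chromosomes 1 to 19 were joined where they shared at least 1 bp, and a joined region was kept when it held a peak of the HFD-O304 list and none of the other lists. Of 25197 joined regions, 6871 met this rule, which is 27.3% of them. Regions found in HFD alone made up 9.52% and regions found in RD alone 8.87%, and 8598 regions were common to the 3 diets. Since the rule used these lists, the number is a description of the lists and not a test.

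The islets came from male CBA mice, a strain without a transgene or deletion in any group. RD mice ate a regular chow, HFD mice a high-fat diet, and HFD-O304 mice the same high-fat diet with O304, a compound the study describes as an activator of the energy sensor AMPK, mixed into the food. The labels give no age, and the study's methods describe young adults kept on the diets for weeks. Each ChIP was made from about 600 pooled islets, so that an islet preparation holds all islet cell types and no single animal can be followed. The 2 replicates of a mark and diet were merged before peaks were called. Each diet therefore had 1 list per mark. Differences between diets have no replicate check and were not tested. The range in parentheses after a share is its 95% Wilson interval. It covers the error of counting alone and takes regions as independent.

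Polycomb repressive complexes place H3K27Me3 on the promoters of genes that a cell type does not use, above all CpG-rich promoters of developmental regulators, where the mark spreads into broad domains. Acetylation of the same lysine (H3K27Ac) marks active promoters and enhancers, and a given histone tail cannot carry both marks on that residue. In beta cells the Polycomb mark is known for covering genes of other lineages and of early development. H3K27Me3 is also found over some repeated sequences, which in the mouse include a great many copies of LINE-1 elements and many short tandem repeats.

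The 3 H3K27Me3 lists rested on 54166902 to 74870300 fragments after removal of duplicates, which made up 45.7% to 56.9% of all fragments, and the HFD-O304 list stood between the others in depth with 57324419 fragments. It was nevertheless the longest, with 20289 peaks on chromosomes 1 to 19, while the RD list held 14286 and the HFD list 14254. When each list was reduced to its 14254 peaks of highest −log10 q, HFD-O304 alone held 3133 regions, HFD alone 3213 and RD alone 2932. As a check of the tissue, H3K27Ac covered the promoters of Ins1, Ins2, Pdx1, Nkx6-1 and Mafa in RD and HFD islets. In HFD-O304 islets it covered those of Ins2, Pdx1, Nkx6-1, Mafa and Slc30a8, and a peak at Ins1 was missing. Iapp and G6pc2 had none in any diet, and neither did the alpha, delta and PP cell hormone genes Gcg, Sst and Ppy. No promoter of the 4 macrophage or 4 endothelial markers carried it. Among acinar markers it lay at Bhlha15 and not at Cpa1, Cpb1, Cela1, Ctrb1 or Ptf1a.

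Most regions of HFD-O304 alone were short and lay just above the calling limit. Their median length was 397 bp, from 220 bp to 3943 bp, and each held a single peak. The fold enrichment, which is the fragment pileup over a uniform background, had a median of 2.88 and reached from 2.69 to 21.8. The spread was narrow, with a quartile range of 2.78 to 3.04. The −log10 q had a median of 2.91, and 417 regions (6.07%) reached 5. The lowest fold called at all differed between the lists. It was 2.53 for RD, 2.69 for HFD-O304 and 2.76 for HFD. A share of 20.3% (19.4 to 21.3%) of the regions therefore had a fold at which no peak was called in HFD, and 0 of the 6871 lay below the limit of RD. Regions common to the 3 diets were longer, with a median of 1119.5 bp over the joined peaks.

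**Figure D1:**
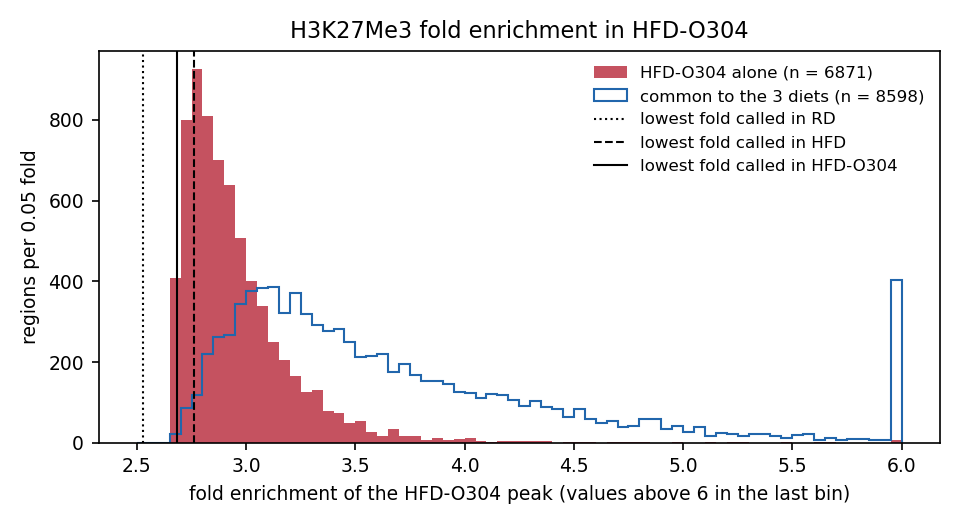
Histogram of the fold enrichment of the HFD-O304 peak (x axis, ratio of pileup to background) for the 6871 regions of HFD-O304 alone (filled) and the 8598 common regions (outline), with vertical lines at the lowest fold called in each list and values above the axis end gathered in the last bin. The filled distribution is crowded against the limits at 2.69 and 2.76, whereas the common regions reach far beyond them.

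At the edge of the rule, several members were tied at the lowest −log10 q of 2.19, with a fold of 2.69. Of these, chr9:115775393-115776098, chr9:119725579-119726366 and chr9:122302549-122303145 had a pileup of 20.0. Others of the tie lay on other chromosomes, such as those in Zfp600 and Sox5. Regions can also be members by position alone. At chr10:24331127-24331349 and chr15:5384877-5385161 the HFD-O304 peak touched a peak of RD or HFD with 0 bp between them and shared no base with it, and at chr15:84039096-84040639 the gap was 1 bp. Just outside, at chr14:18859715-18861866, an HFD-O304 peak of fold 2.78 shared 2 bp with a peak of another list, and at chr14:85534064-85535001 and chr4:107665876-107666524 the shared stretch was 3 bp. Such neighbours were a minority. Of the members, 480 (6.99%) had an RD or HFD peak within 1000 bp, 3870 (56.3%) had none within 10000 bp and 1066 (15.5%) none within 100000 bp.

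The strongest regions lay in repeats, some of them tandem, and away from promoters. All 10 members of highest −log10 q had at least 50% of their bases masked as repeats in the reference, 0 of them lay at a promoter, and in 7 of them at least 30% of the bases belonged to exact tandem repeats with a unit of up to 60 bases. The region at chr7:140221224-140221444 in an intron of Cd163l1, a scavenger receptor gene, shows this well. It reached a −log10 q of 92.0 with a fold of 14.1 and holds 29 copies of the hexamer GGCAGA. It is printed from the plus strand of GRCm38 with the hexamer in capitals.

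chr7:140221224-140221444: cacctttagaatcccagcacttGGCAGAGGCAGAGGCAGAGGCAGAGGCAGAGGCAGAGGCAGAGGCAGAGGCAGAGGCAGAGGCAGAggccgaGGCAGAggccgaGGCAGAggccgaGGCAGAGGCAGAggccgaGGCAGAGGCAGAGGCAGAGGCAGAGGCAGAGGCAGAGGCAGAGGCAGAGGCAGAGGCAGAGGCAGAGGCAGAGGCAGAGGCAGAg

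Another, chr13:13981887-13982496 in an intron of B3galnt2, a glycosyltransferase gene, had a fold of 10.8. It was the only one of the 10 with H3K27Ac in any diet, and that peak, of fold 6.56, was called in HFD. A further 7 had folds of 5.26 to 8.11. They lay at chr7:56660351-56660760, chr6:138624088-138624748, chr15:87967724-87968179, chr3:108999456-108999709 in an intron of Fam102b, chr19:51300504-51300764, chr11:56001444-56001692 and chr14:35692445-35692874. At least 50% of the bases were tandem in 4 of the 10, and 2 of them, on chromosomes 7 (fold 8.11) and 11, held no exact tandem run.

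Tandem repeats became more frequent with the strength of the peak. Among members with a −log10 q under 5, 3.61% (3.18 to 4.09%) had at least 50% tandem bases. Between 5 and 10 the share was 27.6% (23.4 to 32.2%), and at 10 or above it was 14 of 29, or 48.3% (31.4 to 65.6%). The share also rose from the lowest to the middle band in RD alone (9.27% and 42.5%), in HFD alone (4.70% and 29.4%) and in common regions (2.62% and 8.58%). In the highest band it was 7 of 18 in RD alone, 1 of 8 in HFD alone and 20.9% in common regions. In all, 5.15% of members were tandem in this sense, beside 6.13% for HFD alone, 268 of 2234 regions for RD alone and 9.37% for common regions. A run of 24 bases of the hexamer GGCAGA was found in 88 members (1.28%), 27 regions of HFD alone, 29 of RD alone and 159 common regions (1.85%). How reads that match many copies were placed is not given in the sources used here.

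Most members lay in sequence that the reference masks as repeats, as did most regions of the other classes. At least 50% of the bases were masked in 4798 members, or 69.8% (68.7 to 70.9%), and all bases in 3838. The share was 55.1% (53.1 to 57.0%) in HFD alone, 62.6% (60.6 to 64.6%) in RD alone and 65.8% (64.8 to 66.8%) in common regions, beside 65.1% over all joined regions. Regions of RD and HFD-O304 had more, with 76.8%. The classes differed more clearly in which part of a repeat they covered. The 31-base run found in most members, called run 1 here, was present in 572 of them (8.32%), beside 122 regions of HFD alone (5.09%), 77 of RD alone (3.45%) and 88 common regions (1.02%), and has 20481 copies on chromosomes 1 to 19. The run found in most common regions, called run C, was present in 1261 of those (14.7%) and in 56 members (0.815%). Both belong to the same repeated unit. Of the 5086 copies of run C, 95.1% lay within 7000 bp of a copy of run 1, and the most common offset from it was −5040 bp along its strand, at 29.1% of these copies. Another run (run 3), present in 482 members (7.01%), had run 1 within that distance at 46.4% of its copies, and 77.7% of these were spaced by 612 bp. The 3 runs are shown in capitals with 60 bases on either side, each from a strong region of its class that holds the run with both flanks, on the strand that reads the run as written. The runs were picked after the sequences were compared.

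Run 1, chr8:43634620-43634770, minus strand: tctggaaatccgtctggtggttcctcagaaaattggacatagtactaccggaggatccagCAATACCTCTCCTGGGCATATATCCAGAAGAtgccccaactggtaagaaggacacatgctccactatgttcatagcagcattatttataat

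Run 3, chr7:56660588-56660738, plus strand: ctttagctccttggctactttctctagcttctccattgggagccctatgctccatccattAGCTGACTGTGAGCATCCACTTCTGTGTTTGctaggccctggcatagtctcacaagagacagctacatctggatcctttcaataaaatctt

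Run C, chr9:100073954-100074104, minus strand: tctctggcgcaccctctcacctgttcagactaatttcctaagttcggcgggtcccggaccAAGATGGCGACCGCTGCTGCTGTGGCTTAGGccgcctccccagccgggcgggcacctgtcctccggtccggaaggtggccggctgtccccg

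When every region was placed by its distance from the nearest copy of run 1, members gathered at that end of the unit and common regions at the other. A share of 16.4% (15.6 to 17.3%) of members had its midpoint within 1000 bp of run 1, compared with 13.0% (11.7 to 14.4%) in HFD alone, 8.28% (7.21 to 9.50%) in RD alone and 1.77% (1.51 to 2.07%) in common regions. Between 6500 and 4500 bp before run 1 lay 7.92% (7.30 to 8.58%) of members, 4.29% of HFD alone, 9.76% of RD alone and 2665 of the 8598 common regions. A unit of this length with many truncated copies is the layout of mouse LINE-1, in which short promoter units stand in tandem at the front end. The unit was not matched to a repeat annotation, and run 1 was itself picked from the members, so that its frequency in them is a description. In all, 63.9% of members held a run of 31 bases that 10 or more members shared, as did 43.6% of HFD alone, 47.2% of RD alone and 73.1% of common regions, each counted within its own class. Such shares can rise with the size of a class.

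**Figure D2:**
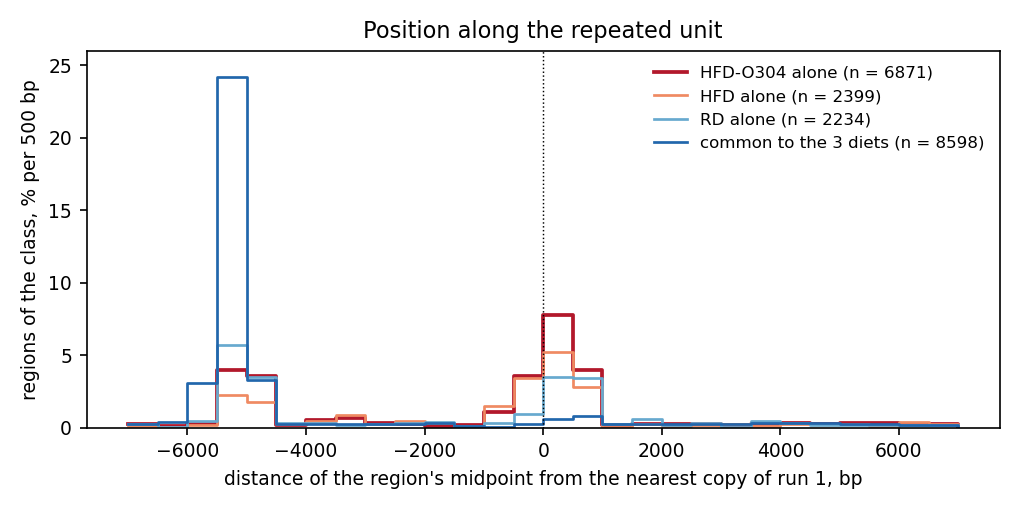
Share of the regions of each class (y axis, percent per 500 bp) by the distance of the midpoint from the nearest copy of run 1 on chromosomes 1 to 19 (x axis, bp, along the strand of run 1). Members rise around 0, where the common regions hold 1.77% within 1000 bp, and the common regions rise at about −5000 bp.

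A second set of repeats was not linked to this unit. Its leading run, found in 362 members, had 2310 copies, and 9.87% of these lay within 7000 bp of run 1. Another run, in 168 members, stood 1265 bp before it at 90.2% of its 1505 copies. The leading run was also found in 131 common regions, 79 of RD alone and 68 of HFD alone.

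Promoters were less frequent among members than among regions of HFD alone, RD alone or all 3 diets. A region was counted at a promoter when it overlapped the 1000 bp on either side of a transcription start site of a protein-coding gene. This held for 402 members, or 5.85% (5.32 to 6.43%), compared with 10.6% (9.42 to 11.9%) in HFD alone, 8.19% (7.12 to 9.40%) in RD alone, 15.6% (14.9 to 16.4%) in common regions and 11.2% over all regions. Regions of RD and HFD-O304 were lower still, with 3.93%. By midpoint, 68.7% of members lay outside protein-coding genes, 23.7% in introns and 1.73% in exons. CpG-rich sequence, with a GC content of at least 50% and an observed to expected CpG ratio of at least 0.6, made up 7.42% (6.83 to 8.07%) of members, 10.9% of HFD alone, 12.4% of RD alone and 17.5% of common regions. Asking a −log10 q of at least 5 in every list changed the order. Members were then at promoters in 10.7%, HFD alone in 25.3%, RD alone in 5.98% and common regions in 6.14%. CpG-rich sequence made up 17.3% of members and 14.3% of common regions under that limit, and 78.9% of common regions were at least 50% masked, compared with 69.7% of members.

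**Figure D3:**
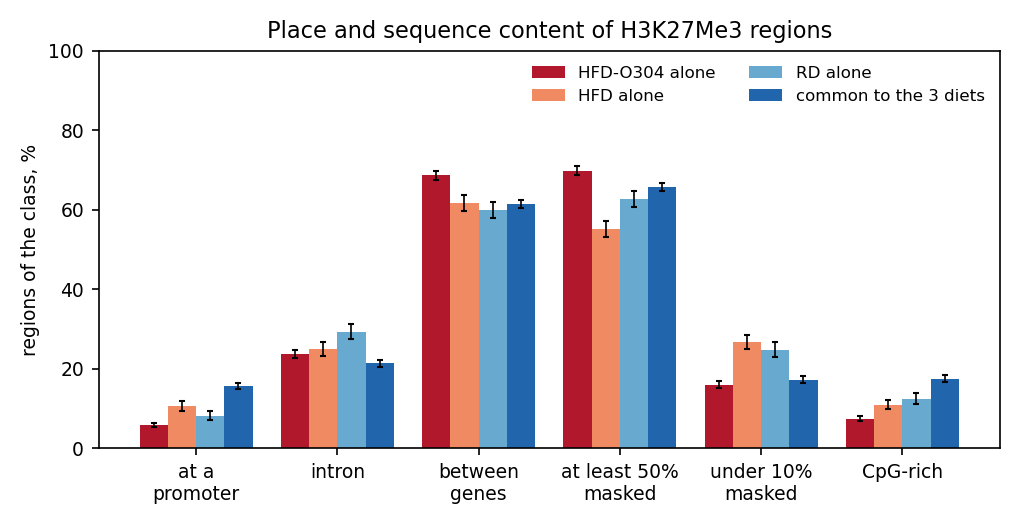
Percent of the regions of each class (bars, with 95% Wilson intervals) that lay at a promoter, in an intron or outside protein-coding genes, that were at least 50% or under 10% repeat-masked, and that were CpG-rich. Of the 4 classes drawn, and without the stricter limit on −log10 q, members have the lowest bars at promoters (5.85%) and for CpG-rich sequence (7.42%) and the highest for masked sequence (69.8%).

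The promoter members belonged to 399 of 20698 protein-coding genes, or 1.93%, while 1.24% had a region of HFD alone and 0.961% a region of RD alone. For 321 of the 399 genes no RD or HFD peak of H3K27Me3 lay at any of their promoters. For the other 78 the member stood beside, or at another start site than, a peak of those diets. Folds at promoters stayed low, between 2.69 and 4.39 with a median of 2.88, like those of the other members, whose median was also 2.88. Of the 402 regions, 127 were CpG-rich, or 31.6%. The share among promoter regions was 47.6% in HFD alone, 61.2% in RD alone, 51.0% in common regions and 48.2% over all classes. Most of the genes lacked acetylation: 291 of the 399 (72.9%) had no H3K27Ac peak at a promoter in any diet. H3K27Ac was found at a promoter of 13.8% (10.7 to 17.5%) of them by the RD list, 23.8% (19.9 to 28.2%) by the HFD list and 20.6% (16.9 to 24.8%) by the HFD-O304 list, whereas over all protein-coding genes these shares were 49.1%, 55.0% and 54.4%.

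The 15 promoter members of highest −log10 q had folds of 3.36 to 4.39, and 0 of them overlapped H3K27Ac in any diet. Olfr270, an olfactory receptor gene, had the highest value (fold 4.39, chr4:52969821-52970053), over a stretch that is tandem in all its bases. Olfr284, also an olfactory receptor, had a fold of 3.41. Krtap5-2, a keratin-associated protein of hair, had a fold of 3.67 and Spink13, of the Kazal type serine protease inhibitors, a fold of 3.75. Signalling genes followed. Gpr4, a receptor that senses protons, had a fold of 3.41 over its start site (chr7:19212257-19212982), Gpr31b, a G protein-coupled receptor, 3.41 (chr17:13052217-13052639), and Igfbp3, which binds insulin-like growth factors, 3.36 (chr11:7213266-7213546). Car3, a carbonic anhydrase of muscle and fat, had a fold of 3.41 (chr3:14862701-14863554), Abcc12, a transporter of the ABC family, 3.53, and Lrrc4b, a synaptic adhesion protein, 3.66 (chr7:44429149-44429618). The zinc finger gene Zfp980 had a fold of 3.68, and Fam107b, Gm11555, Gm13698 and Gm30302 had 4.05, 3.71, 3.60 and 3.55. Of the 15 regions, 5 were at least 50% masked and 4 were CpG-rich. At Zfp980, Lrrc4b and Gpr31b an RD or HFD peak lay within 1000 bp, at 385, 476 and 876 bp.

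The sequences at these promoters fell into different kinds, of which examples are printed from the plus strand. The region at Fam107b (chr2:3614644-3615059, of which the middle 300 bases are shown) has no CpG and consists of a unit of 31 bases repeated 12 times, with the copies in capitals.

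Fam107b, chr2:3614701-3615000: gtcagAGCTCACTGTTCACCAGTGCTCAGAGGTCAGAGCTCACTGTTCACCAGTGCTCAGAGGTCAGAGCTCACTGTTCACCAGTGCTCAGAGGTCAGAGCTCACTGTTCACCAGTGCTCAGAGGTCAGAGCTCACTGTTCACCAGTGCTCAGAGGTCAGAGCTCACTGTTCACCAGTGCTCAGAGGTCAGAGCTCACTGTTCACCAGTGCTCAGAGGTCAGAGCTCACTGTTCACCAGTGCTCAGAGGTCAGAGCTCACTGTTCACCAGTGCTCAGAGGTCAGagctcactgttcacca

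The regions at Igfbp3, at Nkx6-1, a beta cell transcription factor, and at Ddx4, an RNA helicase of germ cells, are CpG-rich, with the 24, 27 and 36 CpG sites in capitals. Col1a1, the collagen gene of stromal cells, has 7 in the middle 300 bases. Ddx4 (fold 3.36, 53 bp behind the start site at the midpoint) was named after its value was seen.

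Igfbp3, chr11:7213266-7213546: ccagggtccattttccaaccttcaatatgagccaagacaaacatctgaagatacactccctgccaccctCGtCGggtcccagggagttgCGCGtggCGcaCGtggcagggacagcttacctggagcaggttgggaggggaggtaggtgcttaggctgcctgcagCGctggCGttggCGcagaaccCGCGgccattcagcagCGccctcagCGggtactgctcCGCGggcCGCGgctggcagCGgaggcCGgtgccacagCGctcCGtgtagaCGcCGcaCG

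Nkx6-1, chr5:101663888-101664169: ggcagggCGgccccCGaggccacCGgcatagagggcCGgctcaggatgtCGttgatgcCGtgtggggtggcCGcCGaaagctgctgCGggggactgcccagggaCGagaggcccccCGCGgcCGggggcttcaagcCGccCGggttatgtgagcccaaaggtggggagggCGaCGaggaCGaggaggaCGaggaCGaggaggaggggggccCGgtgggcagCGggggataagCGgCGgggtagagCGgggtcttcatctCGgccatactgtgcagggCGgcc

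Ddx4, chr13:112652113-112652383: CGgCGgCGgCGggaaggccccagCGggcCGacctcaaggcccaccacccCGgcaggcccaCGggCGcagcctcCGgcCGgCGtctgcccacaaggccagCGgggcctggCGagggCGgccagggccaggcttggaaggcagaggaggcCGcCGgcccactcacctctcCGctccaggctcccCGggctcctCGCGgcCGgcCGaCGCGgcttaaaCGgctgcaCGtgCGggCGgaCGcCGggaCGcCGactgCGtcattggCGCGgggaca

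Col1a1, chr11:94935938-94936237: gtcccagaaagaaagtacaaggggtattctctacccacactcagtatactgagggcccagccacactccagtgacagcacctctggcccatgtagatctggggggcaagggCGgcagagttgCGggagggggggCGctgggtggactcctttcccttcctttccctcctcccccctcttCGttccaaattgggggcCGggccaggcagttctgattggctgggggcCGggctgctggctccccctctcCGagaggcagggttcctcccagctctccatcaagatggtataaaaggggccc

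In 16 gene lists drawn up with earlier results of these data known, promoter members were few, and 6 lists had 0. Of 25 beta cell identity and insulin genes, 1 had a member at a promoter, Nkx6-1. Its region had a fold of 2.73, which is below the lowest fold called in HFD, and H3K27Ac was present at its promoters in the 3 diets. Members in the body of such genes were found at Slc2a2, the glucose transporter GLUT2 (fold 3.43, all bases masked), Glp1r, the receptor of the incretin GLP-1 (2.74), and Pcsk2, a prohormone convertase (2.71). No promoter member was found at 10 stress and dedifferentiation genes, 21 genes disallowed in beta cells, 11 AMPK subunits and kinases, 15 cell cycle inhibitors and cyclins, 19 writers and erasers of marks on lysine 27 or 33 cadherins and protocadherins outside clusters. Among the disallowed genes, Acot7 had a member in its body (fold 3.43, chr4:152245116-152245364) and Hk1 one of fold 2.85. Between gene start and end, 4 of the 25 beta cell genes, Nkx6-1 among them, and 2 of the 21 disallowed genes held a member. Over the 16 lists this ranged from 0 of 11 AMPK genes to 15 of 46 receptor subunits for glutamate, GABA and glycine. The share over all protein-coding genes was not computed, so these counts between gene start and end do not show whether any list stood out. The disallowed list had 9 genes with a common region at a promoter.

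Regulators of development carried common regions more often than members, with a share of members at or above the 1.93% of all protein-coding genes. Of 225 homeobox, Sox, Pax, Gata, Tbx and Fox factors, 156 had a common region at a promoter and 6 (2.67%, 1.23 to 5.69%) a member. These were Lhx3 of the pituitary and motor neurons (fold 3.17), Hoxb3 (2.99), Gata2 of blood progenitors (2.94), Tbx19 of the pituitary (2.79), Lhx6 of interneurons (2.79) and Nkx6-1. Hoxb3 and Lhx6 also had RD and HFD peaks at a promoter, and Gata2 an HFD peak, as did Fgf14 and Wnt2 among the ligands below. Of 72 ligands of the WNT, BMP, FGF, TGF-beta and Hedgehog families, 33 had a common region and 4 (5.56%) a member: Fgf10 (3.16), Fgf14 (2.98), Fgf3 (2.93) and Wnt2 (2.82). Among 21 genes of other cell types, 3 (14.3%, 4.98 to 34.6%) had a member, namely Col1a1 with a fold of 3.36, Acta2, the smooth muscle actin, with 2.97, and Ptf1a, the acinar transcription factor, with 2.83 over 1694 bp (chr2:19444638-19446331). None of the 3 had H3K27Ac there in any diet.

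Of 100 potassium and calcium channel genes, 5 (5.00%, 2.15 to 11.2%) had a member: Kcnt1 (fold 3.27), Kcns1 (3.13), Kcnj9 (3.04), Kcns2 (2.76) and Kcnk15 (2.73). Of 46 receptor subunits for glutamate, GABA and glycine, 4 (8.70%, 3.43 to 20.3%) had one. Gabra4 and Gabrb1, which are transcribed away from each other, shared a single region (fold 2.80, chr5:71657502-71657931), and the others were the kainate receptor genes Grik2 (2.94) and Grik1 (2.87). H3K27Ac overlapped the regions of Grik2 and of Gabra4 and Gabrb1 in HFD and HFD-O304. Of 56 clustered protocadherins, neighbours in 1 array, 4 had members with folds of 2.81 to 3.04. Receptor families of the nose stood below or near the background of 1.93%, with 11 of 1126 olfactory receptor genes (0.977%, 0.546 to 1.74%) and 2 of 326 vomeronasal receptor genes (0.613%), and so did Zfp genes with 7 of 385 (1.82%). The intervals of 10 of the 16 lists hold the background. Those of the ligands, clustered protocadherins, channels, neurotransmitter receptors and genes of other cell types lie above it. That of the olfactory receptors lies below it. These rest on counts of 3 to 11 genes in lists whose genes are not independent. The lists were drawn up with earlier results known, and no test was run. The intervals therefore do not show that a list differs from the background.

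H3K27Ac, which the rule did not use, was rare over the members. A share of 1.22% (0.989 to 1.51%) overlapped an H3K27Ac peak of RD, 2.65% (2.29 to 3.06%) one of HFD and 1.73% (1.45 to 2.07%) one of HFD-O304, while over all joined regions the shares were 12.5%, 19% and 15.3%. Regions of HFD alone had 9.88%, 12.1% and 11.5%, regions of RD alone 10.7%, 15.4% and 13.0%, and common regions 25.6%, 38.5% and 31.2%. The members' shares were below those of HFD alone and RD alone in each of the 3 diets under each of the 8 alternative rules for making the regions. With a −log10 q of at least 5 in every list they were 7.44%, 14.6% and 9.60% for members and 17.6%, 26.2% and 23.7% for HFD alone. The order in which the diets stood, with HFD highest, was the same for all classes named and is also that of the H3K27Ac lists, with 15847 peaks for RD, 19787 for HFD-O304 and 21021 for HFD on these chromosomes.

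The share was low in each kind of sequence. At promoters, members overlapped H3K27Ac in 6.22% (RD), 13.2% (HFD) and 10.9% (HFD-O304), whereas regions of HFD alone did so in 22.8%, 36.6% and 34.6% and regions of RD alone in 51.4%, 61.2% and 58.5%. Promoter regions shared by HFD and HFD-O304 were like the members in RD, with 6.31%, and had 18.2% and 17.1% in the other diets. Away from promoters and in sequence under 50% masked, the members' shares were 1.41%, 4.28% and 2.40%, compared with 2.64%, 5.65% and 4.93% for HFD alone. By counting error alone, the intervals of the 2 classes overlap for RD and HFD and are apart for HFD-O304. Whether the diets differ in this was not tested. In masked sequence the shares were 0.729%, 1.21% and 0.729% for members and 11.9%, 11.4% and 11.1% for HFD alone. Other classes stood nearer to the members there. RD alone had 2.93%, 5.58% and 3.79%, and regions of HFD and HFD-O304 had 3.94%, 5.47% and 4.21%. Region length, which sets how many bases can overlap a peak, differed between classes, with medians of 397 bp for members, 353 bp for HFD alone, 318.5 bp for RD alone, 891 bp for HFD and HFD-O304, 1119.5 bp for common regions and 640.0 bp over all regions. Its part in the shares was not tested.

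**Figure D4:**
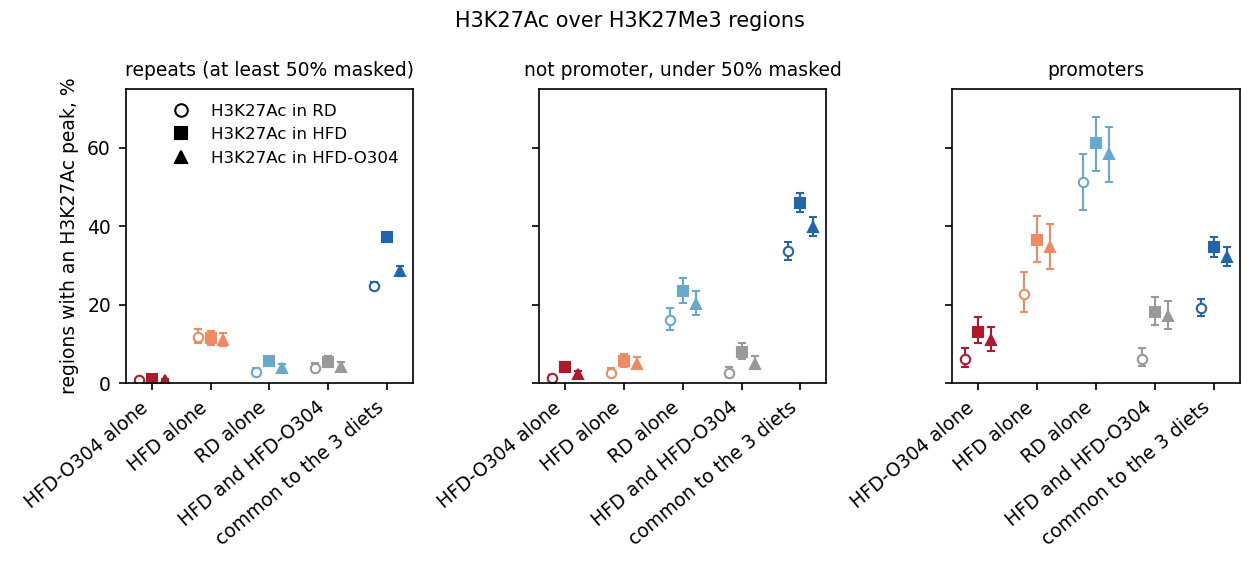
Percent of H3K27Me3 regions that overlap an H3K27Ac peak of RD (open circles), HFD (squares) and HFD-O304 (triangles), with 95% Wilson intervals, for 5 classes of regions in masked sequence, in other sequence away from promoters and at promoters. Members (first class in each panel) stay at or below 13.2% throughout, and regions of RD alone reach 61.2% at promoters.

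Where members did carry acetylation, it was often missing in RD or in HFD-O304. Of the 6871, 250 overlapped H3K27Ac in some diet, 93 in HFD alone, 40 in HFD-O304 alone, 24 in RD alone and 42 in all 3. The others were 33 in HFD and HFD-O304, 14 in RD and HFD and 4 in RD and HFD-O304. By list, 84 overlapped a peak of RD, 119 one of HFD-O304 and 182 one of HFD, so that RD lacked a peak most often. Of the 210 acetylated in RD or HFD, 131 had no H3K27Ac peak in HFD-O304, which is 62.4% (55.7 to 68.7%). The same share was 28.7% (24.2 to 33.8%) in HFD alone, 36.2% (31.6 to 41.2%) in RD alone, 51.8% (45.2 to 58.4%) in regions of HFD and HFD-O304, 36.8% (35.2 to 38.4%) in common regions and 39.8% (38.4 to 41.1%) over all regions. At promoters it was 24 of 55 members, or 43.6% (31.4 to 56.7%), and 24.5% (17.2 to 33.7%) in HFD alone, with overlapping intervals. The reverse was also seen. Of 119 members with H3K27Ac in HFD-O304, 40 had none in RD or HFD, which is 33.6% (25.8 to 42.5%), against 13.8% (10.2 to 18.3%) in HFD alone, 14.9% in common regions, 32.7% (25.8 to 40.4%) in regions of HFD and HFD-O304 and 16.9% (15.8 to 18.1%) over all regions. The first share asks a peak in RD or HFD and the reverse asks absence from both, so they are not built alike. Neither was computed with RD or with HFD in the place of HFD-O304. By the counts above RD lacked a peak more often, so the first share does not mark a loss particular to HFD-O304. The acetylation of members thus differed between diets in both directions.

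Most of the strongest examples lay in repeats. Of the 5 strongest members with H3K27Ac in RD or HFD and not in HFD-O304, 1 had it in HFD, the region in B3galnt2 described above, and 4 in RD, and 4 of the 5 were at least 50% masked. In Ptprn2, a gene of the secretory granule membrane of islet cells, an intronic region (chr12:116678212-116678446) had an H3K27Me3 fold of 4.39 in HFD-O304 and an H3K27Ac fold of 3.34 in RD. In Dpysl3, a gene of axon growth, the folds were 4.28 and 3.13 (chr18:43351281-43351503). Regions far from genes at chr3:14304623-14304954 and chr3:148639852-148640119 had H3K27Me3 folds of 4.81 and 4.11 and H3K27Ac folds of 2.54 and 2.84. Among the 5 with H3K27Ac in HFD-O304 alone, both marks were called in that diet, from separate ChIP samples. At Coro1a, an actin regulator of blood cells, the region covered the start site (chr7:126703640-126704678) with an H3K27Me3 fold of 3.24 and an H3K27Ac fold of 2.29. At Hmox2, a haem oxygenase, they were 3.35 and 2.78 (chr16:4756154-4756479), and in an intron of Bcas3 3.33 and 2.26 (chr11:85707983-85708245). The last 2, at chr19:31825248-31825600 and chr7:8241613-8241860, had H3K27Me3 folds of 4.31 and 4.02. Islets hold several cell types, and peaks of both marks at a place do not show that they were on the same chromosome copies.

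Members were spread over all 19 chromosomes, with an excess on 2. Chromosomes 7 and 14 held 4.04 and 4.03 members per Mb, and the other 17 chromosomes 2.23 to 2.97. On chromosome 14 they were crowded in 1 stretch. Within chr14:3000001-8000000 there were 213 members, or 42.6 per Mb, beside 26 regions of HFD alone, 22 of RD alone and 54 common regions. Outside it chromosome 14 had 2.42 per Mb. This stretch holds 103 protein-coding genes, many of them predicted genes of multi-copy families such as Gm3002 and Gm3005. Its members had a median fold of 2.86, reached 3.53, and were at least 50% masked in 59.2%. A second stretch, chr12:19000001-24000000, held 90 members among 8 genes, a minority of these members mostly masked. Beside them lay 6 regions of HFD alone, 25 of RD alone and 32 common regions. On chromosome 7, the vomeronasal receptor cluster at chr7:8000001-10000000 held 46 members, and the chromosome had 3.77 per Mb without it. The cluster also held 45 common regions, 9 of RD alone and 4 of HFD alone. In copies so alike, reads and therefore peaks may belong to another copy than the one named.

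**Figure D5:**
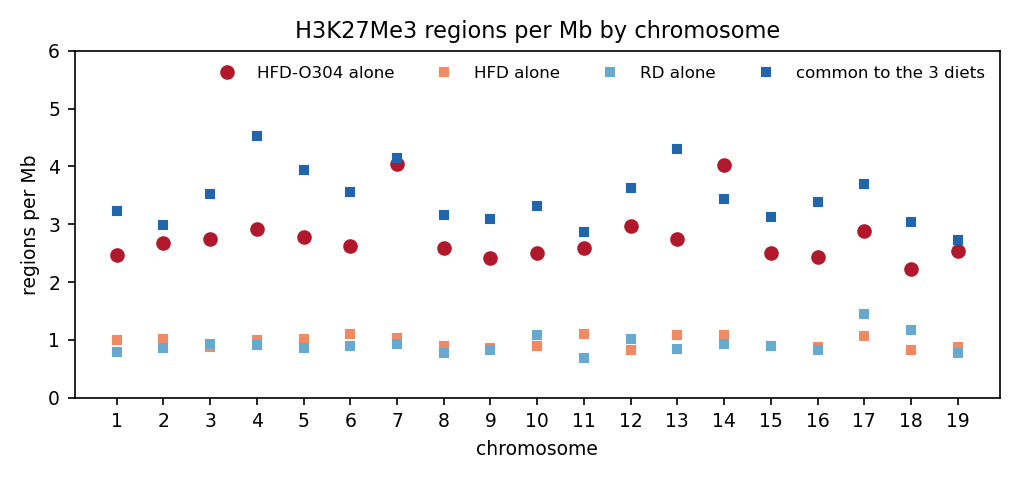
Regions per Mb (y axis) on each of the 19 chromosomes (x axis), with circles for HFD-O304 alone and squares for the other classes. Members stand at 2.23 to 2.97 per Mb except on chromosomes 7 and 14, at 4.04 and 4.03, where regions of HFD alone stay at 1.03 and 1.09 per Mb.

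Single genes collected several members. Gm20388, a readthrough gene model of 4434882 bp that spans other genes, held 16. Dnah8, a dynein heavy chain of the sperm tail, held 15 in 253012 bp, of which 13 were under 50% masked, with folds of 2.69 to 3.33 and 5 common regions between them. The 1 Mb around it (chr17:30000001-31000000) held 16 members, and also 40 regions of RD alone and 7 of HFD alone. C130026I21Rik held 14 in 277877 bp with folds up to 3.87 and 21 common regions. Trhde, an ectoenzyme that breaks down thyrotropin-releasing hormone, and Gm3002 held 13 each. The 1 Mb around Trhde (chr10:114000001-115000000) held 26 members, 17 regions of RD alone and 8 of HFD alone.

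Domains of the mark common to the 3 diets lay near a minority of members. A share of 17.5% (16.6 to 18.4%) had a common region within 5000 bp, close to the 18.3% (16.8 to 19.9%) of HFD alone and above the 12.8% (11.5 to 14.2%) of RD alone. At promoters it was 7.96%. The 5 longest members reached 2897 to 3943 bp with folds of 2.88 to 3.18. The longest, chr7:62657286-62661228, was masked in 99.4% of its bases, and the next pair on that chromosome, chr7:15150531-15153678 and chr7:15173149-15176236, lay outside genes, 235043 and 212485 bp from the nearest start site, that of Obox2, and were masked in 9.37% and 9.29%. Outside promoters and under 50% masked, the strongest member was chr8:109446914-109447135 with a fold of 4.81, and the others were chr4:147707776-147708074 (4.54), a region in an intron of Cyp46a1, a cholesterol hydroxylase of the brain (4.49, chr12:108337633-108337879), chr1:84987406-84987883 (4.34) and chr15:81215959-81217474 (4.27). Few regions of any of the 4 classes overlapped the 1010 enhancers annotated in RefSeq on these chromosomes. The count was 17 members, or 0.247% (0.155 to 0.396%). The share was 0.417% (0.227 to 0.766%) for HFD alone, 0.269% (0.123 to 0.585%) for RD alone and 0.279% (0.188 to 0.415%) for common regions. These intervals overlap, and the share over all joined regions was not computed.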

How the data were processed

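ChIP-seq of H3K27Ac and H3K27Me3 was made by the study in pancreatic islets. The labels describe 12 ChIP samples, 2 per mark and diet, and 3 input samples, which are not analysed here. Per the submitters' processing notes and the study's methods, paired reads were mapped to GRCm38 (Ensembl 96) with Bowtie2, the 2 replicates were merged and broad peaks were called with MACS 2.1.2. Per the file headers the q cutoff was 0.01, 1 fragment was kept per position, and neither a control nor a local background was used. The study's methods state an FDR limit equal to that of the headers, but the command options they print hold a less strict one. The headers were followed. No filter on mapping quality is stated. The deposited lists give for each peak the pileup, a coverage signal in fragments per base, the −log10 q, a q-value on a log scale, and the fold, a ratio of pileup to a uniform background. Replicates cannot be told apart in these values, so precision is given as counting error alone.

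Regions were joined and annotated in Python 3 scripts with pandas and numpy, with start sites and exons of protein-coding genes in GENCODE M21 and with sequence and soft-masked repeats of the GRCm38.p6 reference, which has the build of the files. Joining, overlaps, intervals, shared runs and tandem repeats were tested on simulated data. Tandem bases belong to a run of a unit of 1 to 60 bases that matches itself over at least 24 bases. A run of 31 bases was searched on both strands. Groups were taken from the sample titles. The members, gene lists and named regions (those of highest −log10 q in HFD-O304, over all members, at promoters, outside them and by acetylation, and the longest) were chosen with earlier results of these data known, and the dense stretches, runs and hexamers after their counts were seen. Regions of the same kind on X (405), Y (79) and other sequences (113) enter one alternative alone. The description of 1 region is not reported here. There were 0 unused sample columns.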

Additional observations from a re-analysis of the deposited data

How the results depend on the processing

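The order of the H3K27Ac shares, with members below HFD alone and RD alone in every diet, held under the 8 ways of making the regions that were tried. The numbers themselves moved in 36 of 59 comparisons with an alternative. The members numbered 1666 when every list was limited to a −log10 q of at least 5, 417 when that was asked of the HFD-O304 peak alone, 3133 at equal list size and 2140 without repeat-masked peaks. In the same order, the share at promoters was 10.7% and 3.36% and, without repeats, 17.3%, and with a window of 2500 bp it was 8.62%. The repeat-masked share was 78.7% for strong HFD-O304 peaks, 71.7% above a fold limit shared by the lists, 73.2% at equal list size, 71.4% with all sequences, 64.6% when 80% of the bases had to be masked and 0 by construction without repeats. H3K27Ac of HFD-O304 overlapped 9.60% of members with every list limited by q, 1.2% with HFD-O304 alone limited, 2.31% above the shared fold limit, 4.58% without repeats and 2.08% when peaks were joined at 50% overlap. A common region was near 4.08%, 6.0%, 13.2%, 15.6% (equal list size) and 14% (without repeats), 15.5% when gaps of 1000 bp were bridged, and 32.3% within 20000 bp. CpG-rich members made up 17.3%, 8.39%, 8.61%, 9.13% and 11.4%. The share below the lowest HFD fold was 5.04% and 22.6% under the first and last of these, and 0 under the other 3. Where no construction is named, the cause was not tested. No paired analysis was possible because each list pools both replicates, and none could be omitted in turn. The depth of the lists limits what absence means: a region without a called peak in RD or HFD may carry the mark below the calling limit.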
